A study of Saccharomyces cerevisiae with 12 samples.

Results

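The large-subunit ribosomal protein genes of budding yeast encode the proteins that, with the rRNAs, form the 60S subunit of the cytosolic ribosome. They were taken from the R64 gene table by symbol, as the nuclear protein-coding genes named RPL plus a digit together with RPP0, RPP1A, RPP1B, RPP2A and RPP2B. The rule gave 81 genes of 6002 nuclear protein-coding genes, on 14 of the 16 nuclear chromosomes. RNA polymerase II (Pol II) was mapped on them by chromatin immunoprecipitation and sequencing in 2 strains that differ in DBP2, the gene of a DEAD-box helicase that acts on RNA. Both strains were MATa with the alleles his3Δ1, leu2Δ0, met15Δ0 and ura3Δ0, and expressed the Pol II subunit Rpb3 with a FLAG tag, through which the chromatin was precipitated. The mutant carried the replacement dbp2::KanMx6 and is called dbp2Δ here. Cells grew in YP medium with glucose, and each strain gave 3 immunoprecipitated and 3 input libraries. The cells were fixed with formaldehyde. A peak from a culture cannot tell a higher share of cells with Pol II on a gene from more Pol II per cell.

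Ribosomal protein genes are among the most heavily transcribed Pol II genes of growing yeast. Most of their promoters are bound by Rap1 with Fhl1 and Ifh1, and many of the genes hold an intron near the start codon. Most large-subunit proteins are encoded by a pair of paralogues, named A and B, left by an ancient genome duplication. In these 81 genes the pairs numbered 35, and 11 genes had no paralogue. The ribosome's P stalk, made of Rpp0, Rpp1 and Rpp2 on a base that includes Rpl12, recruits translation factors, and its genes belong to the set.

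The immunoprecipitates of a strain were pooled before peaks were called, which gave 1 list of peaks per strain, 1642 in wild type and 1628 in dbp2Δ. No value per replicate was analysed, so there is no replicate error and no test between the strains. Every difference below is a difference between 2 pooled lists, and its spread is a spread over genes. The pooled immunoprecipitates held 3648848 and 4030024 fragments after duplicates were removed, and the recorded fragment size was 260 bp and 290 bp. Peaks covered 100% of DBP2 itself in the wild-type list and 0% in the list of the deletion. MFA1, MFA2 and STE2, genes of MATa cells, were fully covered in both lists.

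Pol II peaks covered the large-subunit genes from end to end in both strains. A gene was counted as having a peak when at least 50% of its span, from start to stop codon, was covered. All 81 genes met this in both lists, against 19.9% of all nuclear protein-coding genes in wild type and 20.6% in dbp2Δ. Coverage was 100% for 81 of the 81 in wild type and 80 in dbp2Δ, where full coverage was found for 14.4% and 14.3% of all protein-coding genes. The exception was RPL7B (YPL198W, chromosome XVI, 173152 to 174702), which encodes 1 of the 2 forms of Rpl7. Its wild-type peak ended 307 bp past the stop codon. In dbp2Δ the peak ended at -348 bp relative to the stop codon, inside the gene, which left 77.6% of the gene covered. RPL7B holds the snoRNA gene SNR59 within its span, and its paralogue RPL7A holds SNR39, so both host a small RNA that guides rRNA modification. RPL7A was fully covered in both lists.

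The peaks over these genes stood high within each list. Fold enrichment, the authors' ratio of immunoprecipitate to local background at the summit, ranks peaks within a list, and values from both lists are given together with no direction drawn. Over the 81 genes it ran from 4.62 to 19.2 in the wild type with a median of 7.79, and the median of all wild-type peaks was 1.99. In dbp2Δ it ran from 1.86 to 17.1 with a median of 7.89, and the median of all peaks was 2.04. The 81 genes lay under 79 peaks in each list, because RPL24A shared a peak with RPL30 and RPL13A with RPP1A. All 81 were under the first 250 wild-type peaks by fold enrichment, and 79 were under the first 250 of dbp2Δ. The limit of 250 lies just above the lowest wild-type rank of a member, 248, so the wild-type count follows from the limit. The share of all protein-coding genes under these peaks is not given here.

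The exceptions in dbp2Δ were RPL23A, at rank 283, and RPL15B, at rank 977. RPL15B (YMR121C, chromosome XIII, 509734 to 510348), 1 of 2 genes for Rpl15, had the lowest dbp2Δ fold enrichment of the set, 1.86. Its wild-type peak had a value of 4.77 and also covered ADE17, a gene of purine synthesis. The summit lay in ADE17 in both lists, 533 bp past the stop codon of RPL15B in the wild type and 482 bp past it in dbp2Δ. The wild-type peak began 5 bp before its start codon, the shortest upstream reach of any member, and the dbp2Δ peak began 199 bp before it.

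A peak shared with neighbours has a single fold enrichment, taken at its summit, which may lie in the member, in a neighbour or between genes. A neighbour was counted when at least 50% of it lay under the same peak, and genes nested in the member were not counted. By this rule 38 of the 81 genes were alone under their peak in wild type and 36 in dbp2Δ, whereas 54.3% and 50.2% of all protein-coding genes with a peak were. In both lists alone were 32 of the 81, against 42.7% of all protein-coding genes with a peak in both.

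The neighbours differed in kind. In the wild type 71 neighbouring genes lay under members' peaks, of which 9 were snoRNA genes, 8 small-subunit ribosomal protein genes, 4 other large-subunit genes, 1 a tRNA gene and 49 other protein-coding genes. In dbp2Δ there were 70, of which 10 were snoRNA genes, 6 small-subunit genes, 4 large-subunit genes, 1 a tRNA gene and 49 other protein-coding genes. RPL21A with RPS9B and RPL21B with RPS9A lay under common peaks in both lists, so that the arrangement of a large-subunit gene beside a small-subunit gene was repeated in both copies of a duplicated region. Likewise RPL35A lay with ARF1 and RPL35B with ARF2, genes of a small GTPase of vesicle traffic. The summit was in the small-subunit gene for RPL21A, RPL21B and RPL39 in both lists.

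Several of the highest values belonged to snoRNA neighbours. The 10 members under the first 30 wild-type peaks were RPL33B (19.2), RPL28 (15.3), RPL36A (14.6), RPL39 (14.4), RPL3 (14.2), RPL27B (13.8), RPL42B (13.6), RPL21B (13.3), RPL8A (13.3) and RPL9B (13.2). The wild-type summit lay in the snoRNA gene SNR17A, which overlaps IRC13, for RPL33B, in SNR11 for RPL36A, in SNR13 for RPL27B and in SNR32 for RPL42B. For these the fold enrichment does not describe the ribosomal protein gene alone. RPL33A, the paralogue of RPL33B, lay beside SNR17B, and its summit was in SNR17B in the wild type (10.4) and between genes in dbp2Δ (6.90), 191 bp past the stop codon of RPL33A.

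RPL28, under a peak with YGK1, and RPL3, under a peak with YNG1, held the summits of these shared peaks in both lists. RPL28 (YGL103W, chromosome VII, 310967 to 311927) encodes the protein in which cycloheximide resistance mutations were mapped. Its summit lay 71 bp past the start codon in the wild type and 99 bp past it in dbp2Δ, with fold enrichments of 15.3 and 15.5. RPL3 (YOR063W, chromosome XV, 444686 to 445849) encodes a protein close to the peptidyl transferase centre. Its values were 14.2 and 14.0 and its summit lay 134 bp and 172 bp past the start codon. RPL10 (YLR075W, chromosome XII, 282927 to 283592), whose product is added late in 60S assembly, had its summit 290 bp and 302 bp past the start codon under a peak with RFU1 and BUD20. RPL30 (YGL030W, chromosome VII, 439091 to 439638) held the summit of the peak it shares with RPL24A, CGR1, YNCG0020C and SCW11, 82 bp and 47 bp past the start codon. In dbp2Δ 8 members were under the first 30 peaks, which were RPL39 (17.1), RPL33B (15.7), RPL28 (15.5), RPL21B (15.2), RPL9B (15.0), RPL8A (14.7), RPL3 (14.0) and RPL10 (13.4).

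Some peaks were joined to a neighbour in 1 list and not in the other. Of the 81 members, 61 had the same neighbours in both lists, 11 had fewer in dbp2Δ and 9 had more. The matching shares over all protein-coding genes are not given here, so nothing particular to the members is read from the counts of joined peaks. A neighbour was present in the wild type only for 4, namely RPL9A with ARO2, RPL6B with FPR4, RPL15B with ADE17 and RPL25 with MDH2. The peak over RPL25, whose product sits at the exit of the peptide tunnel, was 3643 bp long in wild type and 1587 bp in dbp2Δ. For the peak over RPL13A and RPP1A the lengths were 5918 bp, reaching over RPS16B and SUB2, and 2410 bp. RPP2A had lengths of 5557 bp, with RPS15 and NOP12 under the wild-type peak, and 2391 bp.

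In the other direction, 6 members had a neighbour in dbp2Δ only. They were RPL41B with PPH21, RPL16A with SNR68, FLX1 and YIL134C-A, RPL40B with PTR2, RPL1A with FLC1, RPL11A with MRPL51 and SNT309, and RPL31B with DUS4. The peak over RPL40B, which encodes a ribosomal protein made as a fusion to ubiquitin, was 1612 bp in wild type and 3393 bp in dbp2Δ, where it also covered the peptide transporter gene PTR2. RPL16A had lengths of 1534 bp and 3037 bp. In RPL16A the dbp2Δ summit lay 1602 bp past the stop codon, beyond the gene, whereas the wild-type summit lay 73 bp past its start codon.

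The lists differed in where the summit lay along the gene. Among the 32 members alone under their peak in both lists, the summit lay in the first 50% of the span for 25 in wild type and 5 in dbp2Δ. Past the stop codon it lay for 4 in wild type and 17 in dbp2Δ. The median summit was 104.5 bp past the start codon in the wild type, or 14.1% of the span, and 760.5 bp past it in dbp2Δ, or 110.7% of the span, so beyond the stop codon. Over all 434 protein-coding genes alone under their peak in both lists, a summit in the first 50% was found for 51.8% in wild type and 21.9% in dbp2Δ. A summit past the stop codon was found for 14.1% and 40.3% of them. The direction was that of the members, whose shares in the first 50% were 78.1% and 15.6%, and the sizes were not tested against each other.

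**Figure D1:**
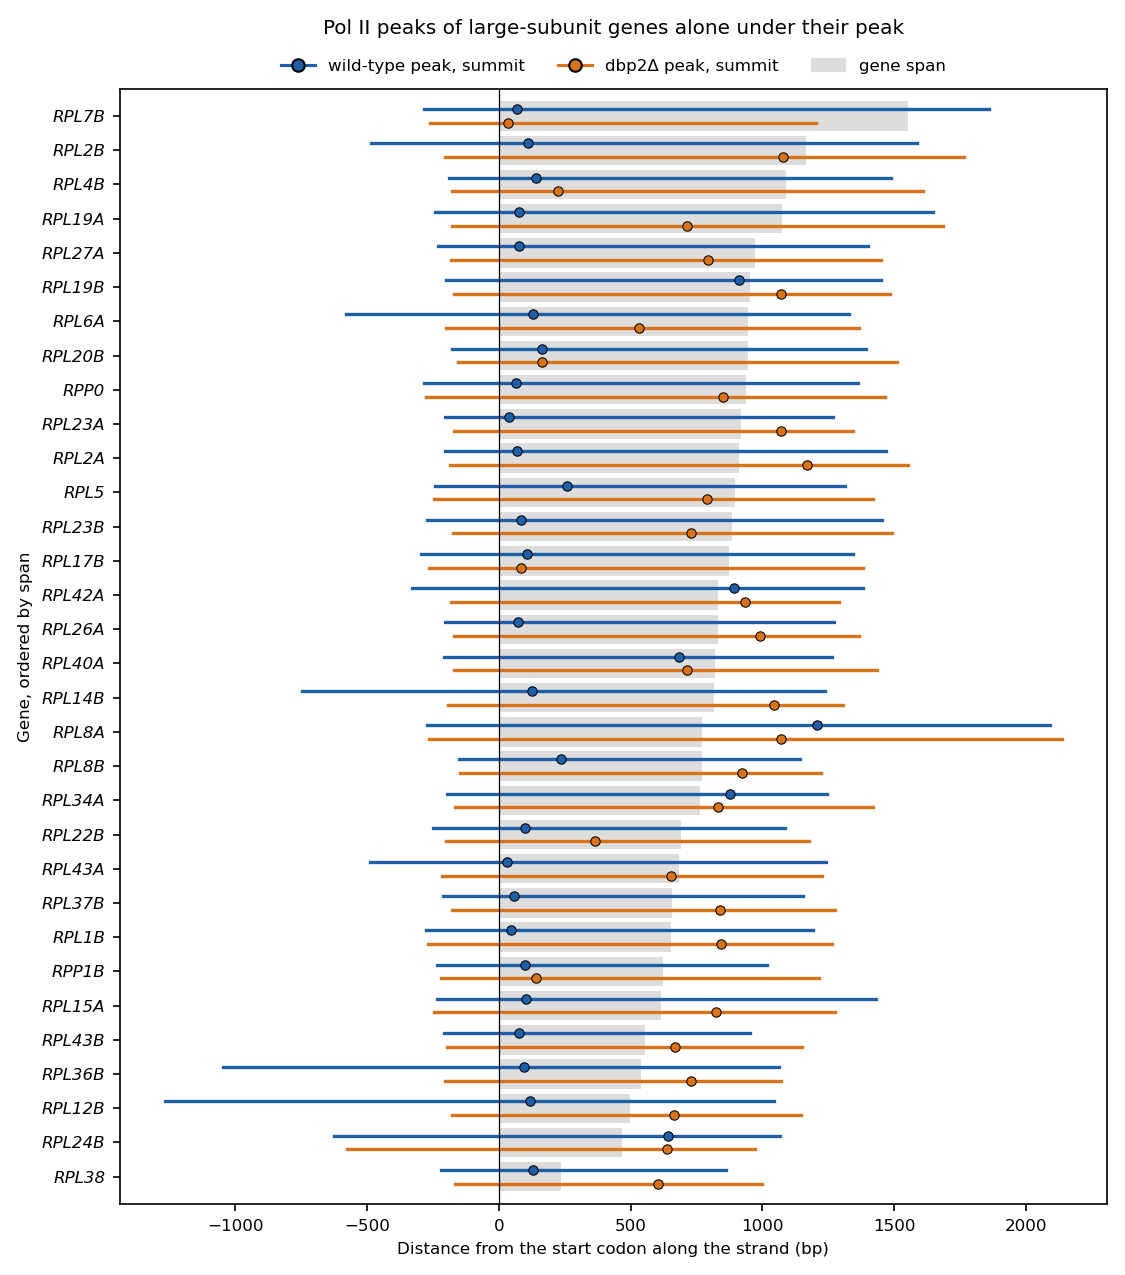
Peaks of the 32 large-subunit genes alone under their peak in both lists, drawn from their left to right edge against the distance from the start codon along the strand in bp. Lines are the peaks, dots the summits and grey bars the gene spans. In 22 genes the dbp2Δ summit lies over 100 bp further 3′ than the wild-type summit.

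Per gene, the dbp2Δ summit lay more than 100 bp further 3′ than the wild-type summit for 22 of the 32, against 53.2% of all 434 genes. It lay more than 100 bp further 5′ for 1, against 8.76% of the 434, and within 100 bp for 9. The distance of 100 bp was chosen after the values were seen. The median difference was 567 bp further 3′, and the middle 50% of genes ran from 42.8 to 737.5 bp. A list gives the highest point of a peak only. The height of any further maximum under the same peak was not analysed here.

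Genes for proteins of the P stalk and the 5S particle were of both kinds. RPP0 (YLR340W, chromosome XII, 805887 to 806825), the backbone of the stalk, had its summit 66 bp past the start codon in the wild type and 850 bp past it in dbp2Δ, 88 bp before the stop codon. Its fold enrichments were 9.75 and 12.1. RPL5 (YPL131W, chromosome XVI, 303121 to 304014), whose product binds 5S rRNA with Rpl11, had its summit 258 bp and 791 bp past the start codon, with fold enrichments of 10.1 and 10.6. RPL12B, for a protein of the stalk base, had its summit at 119 bp in the wild type and, at 663 bp, 166 bp beyond the stop codon in dbp2Δ. Its paralogue RPL12A, under a peak with the snoRNA gene SNR80, had its summit at 120 bp in wild type and between genes, 687 bp beyond the stop codon, in dbp2Δ. The stalk gene RPP1B had its summit near the start codon in both, with summits 100 bp and 142 bp past the start codon and fold enrichments of 9.32 and 8.30.

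The remaining stalk genes lay under shared peaks. RPP2B had its summit 125 bp past the start codon in the wild type and 137 bp past it in dbp2Δ, and RPP2A 102 bp and 161 bp, all inside the gene. RPP1A converged on RPL13A, and their common summit lay between them in both lists, 201 bp and 232 bp past the stop codon of RPP1A. RPL11A and RPL11B, for the other protein of the 5S particle, differed from each other. RPL11A had its summit 61 bp past the start codon in the wild type and 381 bp past it in dbp2Δ, whereas RPL11B, under a peak with PIL1, had it 24 bp and 22 bp past the start codon. Of these 7 stalk and 3 5S-particle genes, 3 and 2 had the dbp2Δ summit over 100 bp further 3′, a share near the 46.3% of all 1017 protein-coding genes with a peak in both lists.

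In 11 of the 25 members with a wild-type summit in the first 50% of the span, the dbp2Δ summit lay past the stop codon, in 9 it lay in the last 50%, and in 5 it lay in the first 50% too. The same split of other genes with such a wild-type summit is not given here, so the counts describe the members only. Among the 11 the distance between the summits was widest in RPL2A, RPL23A and RPL26A. RPL2A (YFR031C-A, chromosome VI, 220507 to 221418), for a protein near the peptidyl transferase centre, had summits 68 bp and 1170 bp past the start codon, the latter 259 bp beyond the stop codon. RPL23A (YBL087C, chromosome II, 59822 to 60739) had summits at 38 bp and 1069 bp, 152 bp beyond the stop codon. Its fold enrichments of 4.77 and 3.93 were the lowest in either list among the members alone in both. RPL26A, for a protein at the tunnel exit, had summits at 71 bp and 989 bp, 159 bp beyond the stop codon. RPL15A had summits at 101 bp and 824 bp, 210 bp beyond the stop codon, and RPL8B at 236 bp and 921 bp, 151 bp beyond it. RPL2B, the paralogue of RPL2A, had summits at 110 bp and 1078 bp, the latter still inside its longer span of 1165 bp.

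The 5 with the summit in the first 50% in both lists were RPL7B, RPL4B, RPL17B, RPL20B and RPP1B. RPL20B had its summit 165 bp and 164 bp past the start codon, and RPL17B 108 bp and 83 bp. Both Rpl4 and Rpl17 line or border the peptide tunnel, and RPL4B had summits at 139 bp and 223 bp. The paralogues RPL4A and RPL17A, under shared peaks, had the dbp2Δ summit further 3′ by over 100 bp, with RPL4A at 99 bp and 226 bp and RPL17A at 176 bp and 797 bp. In RPL4A the difference was 127 bp, against 84 bp in RPL4B, and both stayed in the first 50% of the span. These copies of RPL4 thus fell on different sides of the 100 bp limit by little.

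The 17 dbp2Δ summits beyond the stop codon lay 70 to 366 bp past it, with a median of 170 bp. They lay between genes for 15 and in the next gene for 2, RPL37B, whose summit was in LCD1, and RPL38, whose summit was in PEX30. Both neighbours converge on the ribosomal protein gene. Distances past the stop codon include the 3′ untranslated region, because the gene table gives coding spans.

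In 4 members the summit lay past the stop codon in both lists. RPL8A (YHL033C, chromosome VIII, 35255 to 36025) had it 436 bp past the stop codon in the wild type and 300 bp past it in dbp2Δ, between genes, and was the member alone in both lists whose dbp2Δ summit lay over 100 bp further 5′. RPL8A also had the highest fold enrichment of the members alone in both lists, 13.3 in wild type and 14.7 in dbp2Δ. RPL24B had it 175 bp and 170 bp past, RPL34A 115 bp and 70 bp, and RPL42A 59 bp and 102 bp.

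**Figure D2:**
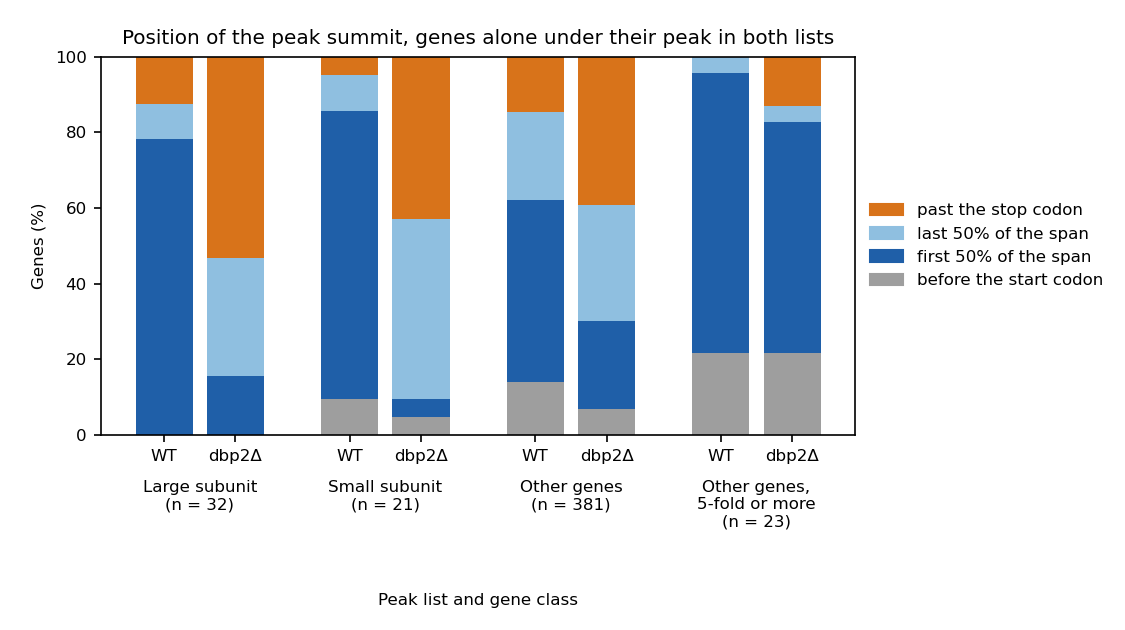
Share of genes (%) by where the peak summit lay along the gene, for genes alone under their peak in both lists, with 1 bar per peak list and gene class. Colours give the place of the summit. For the large-subunit genes the first 50% of the span holds 78.1% of wild-type and 15.6% of dbp2Δ summits.

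Small-subunit ribosomal protein genes gave similar values. Of the 21 alone under their peak in both lists, 16 had the summit in the first 50% of the span in wild type and 1 in dbp2Δ, and for 16 the dbp2Δ summit lay over 100 bp further 3′, with a median difference of 674 bp. Of 381 other protein-coding genes, 193 had it over 100 bp further 3′, or 50.7% against 68.8% of the 32 members, with a median of 104 bp. The middle 50% of these other genes ran from -5 to 922 bp, and that of the members from 42.8 to 737.5 bp. The upper quartile was thus no lower in the other genes, and the medians alone do not give the size of the larger differences. Of these 381, 23 had a wild-type fold enrichment of 5 or more. Among them 17 had the summit in the first 50% in wild type and 14 in dbp2Δ, and 7 had the dbp2Δ summit over 100 bp further 3′, with a median difference of 44 bp. These genes were longer, with a median span of 1377 bp against 826 bp for the 32 members, and no test of the difference between the classes was made. Of the 381, the 284 with a span within the range of all members had a median span of 921 bp. Their median difference was 63.5 bp, the middle 50% ran from -12 to 711.5 bp, and 132 had the dbp2Δ summit over 100 bp further 3′. Of the 32 members, the 13 whose span is not a multiple of 3, as a span with an intron can be, had a median difference of 590 bp, and the other 19 had 544 bp. A span that is a multiple of 3 can hold an intron too, so this split does not separate genes with an intron from genes without.

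With all 81 members, shared peaks included, the summit lay inside the gene for 57 in wild type and 35 in dbp2Δ, against 52.2% and 39.5% of all protein-coding genes with a peak. The dbp2Δ summit lay over 100 bp further 3′ for 45 of the 81, or 55.6%, and further 5′ for 2, RPL8A and RPL35A. Over all 1017 protein-coding genes with a peak in both lists these shares were 46.3% and 12.8%. Under shared peaks the summit could lie beyond the member in 1 list and inside it in the other. In RPL7A the wild-type summit lay at -491 bp relative to the start codon, upstream of it, and the dbp2Δ summit 609 bp past it, under peaks of 7014 bp and 3099 bp, the longer of which also covered DBP3 and HNM1.

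The edges of the peaks differed in the same sense along the strand. For the 32 members alone under their peak, the peak reached a median of 243.5 bp upstream of the start codon in wild type and 190 bp in dbp2Δ. Downstream of the stop codon it reached 459.5 bp and 540.5 bp. The 5′ edge lay further in for dbp2Δ in 30 of the 32, against 73.3% of all 434 genes, with a median difference of -34.5 bp. The 3′ edge lay further out in 27 of the 32, against 77.6%, with a median difference of 77.5 bp. Both held in 26 of the 32, against 56% of the 434. The recorded fragment size was 30 bp larger in dbp2Δ and its pooled immunoprecipitate deeper, and the part of depth in these differences was not tested. With the 30 bp taken off each outward difference, an alternative chosen after seeing the data, the median differences were -64.5 bp at the 5′ edge and 47.5 bp at the 3′ edge.

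The same medians in small-subunit genes were -34 bp at the 5′ edge and 68 bp at the 3′ edge, and in other protein-coding genes -34 bp and 71 bp. The length of the members' peaks had a median difference of 40 bp, longer in dbp2Δ for 20 of the 32 and shorter for 12.

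**Figure D3:**
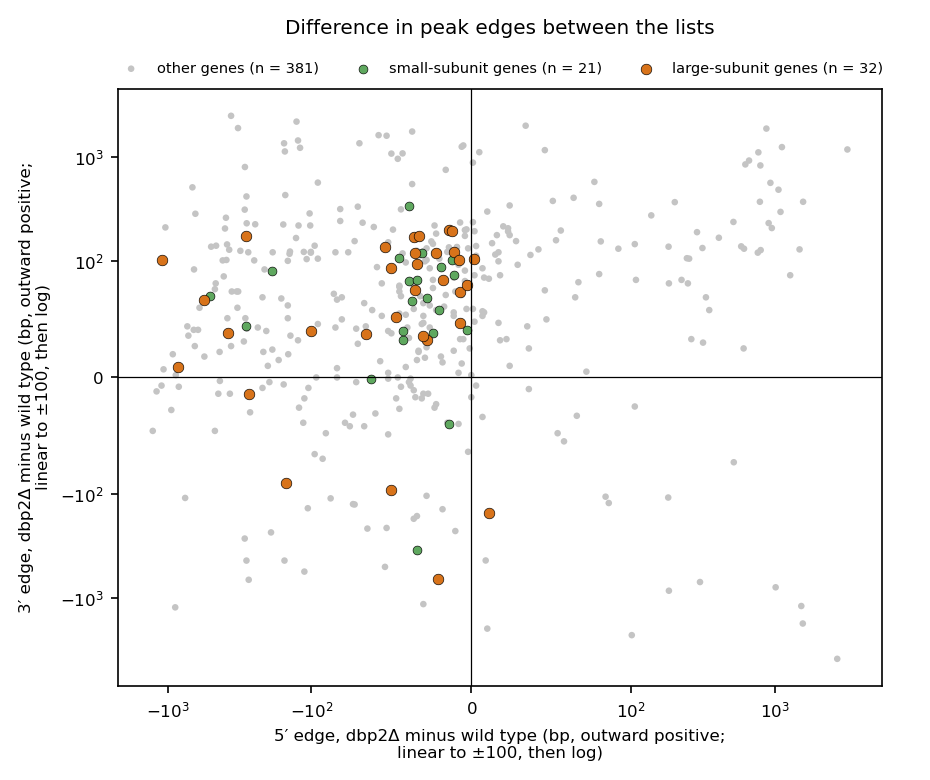
Difference in the 3′ edge (bp) against the difference in the 5′ edge (bp) of the peak, dbp2Δ minus wild type and outward positive, for 434 genes alone under their peak in both lists. Each point is a gene, and both axes are linear to ±100 bp and logarithmic beyond. Large-subunit genes lie mostly in the upper left, with the 5′ edge further in and the 3′ edge further out in 26 of 32.

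The largest inward differences at the 5′ edge were those of RPL12B, RPL36B, RPL14B, RPL6A and RPL2B. In RPL12B the peak reached 1268 bp upstream in wild type and 178 bp in dbp2Δ, and in RPL36B 1047 bp and 205 bp. RPL14B reached 749 bp and 194 bp, RPL6A 579 bp and 201 bp, and RPL2B 487 bp and 204 bp. In each of these 5 the wild-type reach was above the upper quartile of the 32 members, 304.5 bp, and the dbp2Δ reach was below it. The gap to the upstream gene was 604 bp for RPL12B (SYF1) and 429 bp for RPL36B (GYP5). It was 306 bp for RPL14B (HSE1) and 557 bp for RPL6A (TCB3). In all of these but RPL2B, the wild-type peak ran into the upstream gene and the dbp2Δ peak did not. The part covered was too small to count as a neighbour. For RPL2B the gap was 634 bp (FAF1), which neither peak crossed. The 2 members whose 5′ edge lay further out in dbp2Δ, RPL15A and RPL5, differed by 11 bp and 2 bp.

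At the 3′ edge the largest outward differences were those of RPP1B, RPL43B, RPL34A, RPL2B and RPL40A. RPP1B reached 394 bp past the stop codon in wild type and 592 bp in dbp2Δ, a difference of 198 bp, and RPL43B 400 bp and 595 bp. RPL34A and RPL2B each differed by 175 bp and RPL40A by 171 bp. The 3′ edge lay further in for 5 members, RPL7B, RPL15A, RPL24B, RPL42A and RPL43A. The differences were -655 bp in RPL7B, -153 bp in RPL15A, -97 bp in RPL24B, -91 bp in RPL42A and -14 bp in RPL43A.

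The next gene downstream ran in the same direction for 24 of the 32 members and converged for 8. With a convergent neighbour the gap to it had a median of 279.5 bp, and the peak passed its 3′ end in 8 of 8 in both lists. These gaps were at most 395 bp, and the median reach past the stop codon there was 527.5 bp in wild type and 607.5 bp in dbp2Δ. With a tandem neighbour the gap had a median of 440.5 bp, and the peak reached into it in 12 of 24 in wild type and 14 in dbp2Δ. Shares over all genes are not given beside these counts, which describe the members only. The 3′ edge lay further out in dbp2Δ by a median of 77.5 bp for tandem and 80.5 bp for convergent neighbours. Beside a convergent gene, Pol II on either strand can set the edge, because the lists carry no strand.

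The peaks over the copies of a pair often differed in fold enrichment, and mostly had the same order in both lists. None of the 35 pairs shared a peak. The higher member of a pair was the same in both lists for 30 pairs, A in 16 and B in 14. The matching share over other pairs of genes is not given here, so nothing particular to paralogues is read from this count. For several copies the summit lay outside the gene, so the value is that of the peak and not of the copy alone. The ratio of the higher to the lower fold enrichment had a median of 1.29 in wild type and 1.40 in dbp2Δ. It exceeded 1.5, a mark chosen after the values were seen, for 11 pairs in wild type and 15 in dbp2Δ, and for 10 in both. Pairs whose order differed between the lists had ratios of at most 1.23 in wild type and 1.42 in dbp2Δ, below the mark. That the 10 kept their order therefore follows from the mark. Reads from near-identical stretches of a pair may be placed on either copy, and how they were treated is not given in the sources used here, so differences between paralogues are uncertain to that extent.

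**Figure D4:**
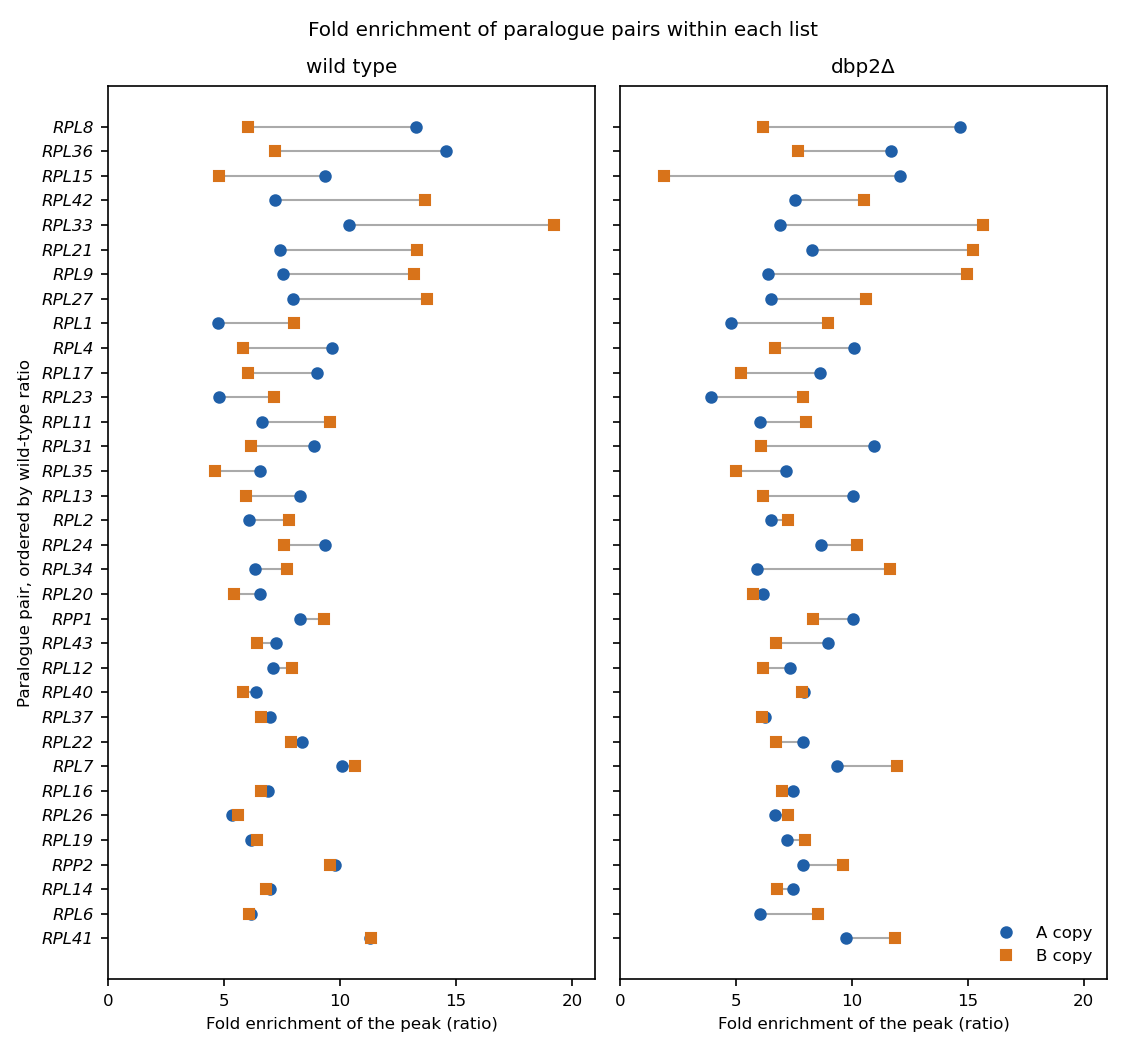
Fold enrichment of the peak over the A and the B copy of 34 of the 35 paralogue pairs, in the wild-type list and in the dbp2Δ list. Circles are A copies, squares B copies, and a line joins a pair. The order of the copies is the same in both panels for 29 of the pairs drawn.

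The widest wild-type ratio was that of RPL8, with 13.3 for RPL8A and 6.04 for RPL8B, and 14.7 and 6.16 in dbp2Δ. The RPL8A summit lay between genes in both lists, 436 bp and 300 bp past the stop codon. The RPL8B summit lay inside the gene in wild type and between genes, past the stop codon, in dbp2Δ. In RPL36 the values were 14.6 for RPL36A and 7.20 for RPL36B, and 11.7 and 7.66 in dbp2Δ, where the RPL36A summit lay in SNR11. RPL42, with 7.19 for RPL42A and 13.6 for RPL42B, and RPL33, with 10.4 for RPL33A and 19.2 for RPL33B, likewise had a snoRNA gene under the peak of the higher copy. RPL15 had 9.34 for RPL15A and 4.77 for RPL15B, and 12.0 and 1.86 in dbp2Δ, the widest ratio there at 6.47. Both RPL15B values were taken at a summit in ADE17. In 4 of the 5 widest pairs, all but RPL8, a copy shared its wild-type peak with a neighbour.

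Both members were alone under their peak in both lists for 5 pairs, RPL2, RPL8, RPL19, RPL23 and RPL43, and these kept their order. RPL2B stood above RPL2A with 7.79 against 6.05 in the wild type and 7.24 against 6.49 in dbp2Δ. RPL23B stood above RPL23A with 7.13 against 4.77, and 7.88 against 3.93. The closest pairs in the wild type were RPL41 (11.3 and 11.3), RPL6 (6.17 and 6.06) and RPL14 (6.96 and 6.82). RPL41A and RPL41B encode one of the smallest proteins of the cell, with spans of 78 bp, so their values come from peaks of at least 1158 bp.

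The order differed between the lists for RPL6, RPL12, RPL24, RPP1 and RPP2. For these the ratio was at most 1.23 in wild type and 1.42 in dbp2Δ. RPL24A stood above RPL24B in the wild type (9.33 and 7.59) and below it in dbp2Δ (8.65 and 10.2), and the values of RPL24A were those of a peak with its summit in RPL30. RPL30 is known for a product that binds its own transcript and blocks its splicing. The order of RPP1A and RPP1B (8.25 and 9.32, then 10.02 and 8.30) rested on the common peak of RPP1A and RPL13A. The dbp2Δ summit lay over 100 bp further 3′ for both copies in 10 pairs, for 1 copy in 19 and for neither in 6, where 55.6% of all 81 members had it there, and nothing particular to pairs is read from these counts.

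The lists of other genes of the pathway ranged from no peak to a peak on every gene, beside the 19.9% and 20.6% of all protein-coding genes with a peak. All 57 small-subunit genes had a peak in both lists. Of 10 genes for regulators of ribosomal protein genes, the 50% rule was met by 1 in the wild-type list and 3 in dbp2Δ. HMO1, a high-mobility-group protein found at these promoters, was covered over 100% in both (3.89 and 3.77). IFH1, the coactivator recruited through Fhl1, was covered over 0% in wild type and 87.6% in dbp2Δ, with a fold enrichment of 1.70 there. SFP1, a transcription factor of growth control, was covered over 13.0% and 63.4%. The genes of RAP1, FHL1, CRF1, ABF1, REB1, TBF1 and SCH9 did not meet the 50% rule in either list, SCH9 with 49.7% covered in dbp2Δ.

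Of 5 chaperones dedicated to large-subunit proteins, 3 had a peak in both lists. RRB1, the chaperone of Rpl3, had fold enrichments of 2.51 and 2.93, and SQT1, that of Rpl10, 2.12 and 1.99. SYO1, which escorts Rpl5 and Rpl11, lay under a peak with RPS29B (6.28 and 5.45). ACL4 and BCP1, for Rpl4 and Rpl23, stayed below the rule. Of the late maturation genes NMD3, TIF6, REI1 and SDO1 had a peak in both lists, with wild-type fold enrichments of 2.75, 3.20, 2.47 and 2.03, and LSG1 in neither. Of the stalk assembly genes MRT4 (2.89 and 3.51) had a peak in both and YVH1 in neither. None of 6 genes for enzymes that methylate large-subunit proteins, RKM1 to RKM5 and HPM1, met the rule in either list. Of the regulator, chaperone, late maturation, stalk assembly and methylation genes, HMO1, SQT1, MRT4 and TIF6 were alone under their peak in both lists. Their summits lay at 18.8% and 129.2% of the span in HMO1, 7.61% and 107.5% in MRT4, and 4.21% and 141.7% in TIF6, wild type first. In SQT1 they lay at 82.9% and 89.2%, near the stop codon in both lists.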

How the data were processed

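Both yeast strains gave 3 immunoprecipitates and 3 inputs, 12 libraries in all. Genome build R64 is named in the submitters' processing notes, as are MACS2 2.1.2, Trimmomatic 0.36 and, for alignment, Bowtie2 2.3.3.1. The authors pooled the libraries of a strain and called its peaks from paired reads, immunoprecipitate against input, per the file headers. The settings recorded there are a q-value cutoff of 0.05, 1 duplicate kept per position and a local background over 1000 and 10000 bp. The deposited lists give start, end, length and summit in bp, counted from 1. The fold enrichment is a ratio and the pileup a coverage signal at the summit, both as the authors' caller gave them. The deposited −log10 p- and −log10 q-values were not used.

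Genes came from a RefSeq table of R64, with 6431 nuclear genes, strand being read from the W or C of the systematic name. Each gene was assigned the peak with the largest overlap. Edges and summits were measured along the strand from the start and stop codons. The genes named follow a rule over roles, extremes of fold enrichment, edges and pairs, and the first 30 peaks. Examples beyond it, among them RPL2A, RPL4A, RPL16A, RPL17A, RPL25, RPL35A, RPL35B, RPL40B and the neighbours, were chosen after their values were seen. The members and lists were chosen with earlier results of these data known. Python 3.11.15, pandas 2.3.3 and numpy 2.4.6 were used. The geometry was tested on simulated data. Promoter motifs, protein identity and introns were not analysed here. Alternatives covered coverage, peak filters, neighbour rules and the members measured. A pair of members is counted in every total but not reported here by name.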

Additional observations from a re-analysis of the deposited data

How the results depend on the processing

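No paired analysis was possible because each list was called on pooled replicates, which carry no replicate values, and leaving out single replicates could not be done for the same reason. Over 18 results, 38 of 45 alternatives left the value within 1.5 times the count or within the spread of the median over genes, and no difference changed direction. Counting any overlap as a neighbour left 9 members alone in the wild-type list, 12 in that of dbp2Δ and 6 in both, of which 4 had the dbp2Δ summit over 100 bp further 3′. With all members the median dbp2Δ reach was 220 bp upstream and 609 bp downstream. Taking the fragment size difference of 30 bp off the outward differences, an alternative chosen after seeing the data, gave medians of -64.5 bp at the 5′ edge and 47.5 bp at the 3′ edge. Of the 5 pairs with both members alone in both lists, 5 kept their order, fewer because fewer pairs entered. The distance limits of 50 and 250 bp and the restriction to 5-fold peaks were also chosen after seeing the data. Alternatives on protein identity and promoter motifs were not run. The depth of the pooled libraries sets what could be called as a peak, and no error between replicates limits these values.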
